A study of Mus musculus with 24 samples.

Results

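The BMP pathway and Id genes followed here are 10 genes: the secreted ligands Bmp4 and Bmp7, the transcription regulators Id1, Id2, Id3, Msx1 and Msx2, and the signalling inhibitors Smad6, Smad7 and Bambi. They were chosen by name, through the probes that the array annotation pairs with each symbol, and were followed across all 12 groups of a study of mouse pluripotent cell lines. Of the 10 genes, 9 had a probe, out of 16593 named genes on the array, and 7 passed the filter on detection, out of 8932 genes tested. The 9 genes had 11 probes in all, with 2 each for Id2 and Smad6. Msx2 and Bambi were detected on 0 of 24 arrays, and Smad7 was not analysed here.

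Bone morphogenetic proteins (BMPs) are secreted ligands that bind paired serine/threonine kinase receptors, whose activation leads to phosphorylation of Smad1, Smad5 and Smad9. These enter the nucleus with Smad4 and switch on targets, among them the Id genes, whose proteins lack a DNA-binding domain and hold E proteins such as Tcf3 and Tcf12 away from DNA. In mouse embryonic stem (ES) cells BMP signalling acts with the cytokine LIF to hold back differentiation, whereas added BMP4 drives epiblast stem cells (EpiSCs), the later, primed pluripotent state, towards mesoderm and extraembryonic fates. Smad6 and Smad7 are inhibitory Smads, and Bambi is a receptor without a kinase domain, so that each damps the pathway that induces it.

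The arrays measured total RNA of cultured mouse cells in 12 groups of 2, which the submitters describe as biological replicates. P19-Sox2 and F9-Sox2 are male embryonal carcinoma (EC) lines labelled as overexpressing wild-type Sox2, a pluripotency transcription factor, and P19 EC and F9 EC are the lines without it. EpiSox2mE1, EpiSox2mE2 and EpiSox2mL2 are male EpiSCs of GOF18 background labelled as overexpressing Sox2. The first and the second of these were cultured in ES cell medium and EpiSox2mL2 in EpiSC medium, and EpiSCm is the same line without added Sox2. Female EpiSCs of OG2 background make up the arrays labelled Epi-Sox2f, marked as overexpressing Sox2, and EpiSCf, without it. Female OG2 ES cells (ESCf) and male ES cells (ESCm) complete the series. The promoter that drives Sox2, the number of clones behind each line and the passage are not given in the sources used here.

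Median signal was 90.2 to 101 on the 8 arrays of the GOF18 family (EpiSox2mE1, EpiSox2mE2, EpiSox2mL2 and EpiSCm) and 119 to 152 on the other 16, so line and array brightness cannot be told apart wherever that family is set against another line. Sox2 was called higher in 5 of 6 groups that carry an overexpression label. In the arrays labelled Epi-Sox2f its log2 intensity was 8.89 and 8.73, against 8.96 and 9.03 in EpiSCf, so the label is quoted and not taken as a Sox2 rise. Fgf5, a marker of the primed state, stood at 10.24 and 10.72 in EpiSCf and 10.31 and 10.69 in EpiSCm and was undetected on all 4 ES cell arrays. Klf4, a factor of the naive state, was detected on no EpiSCf array and on 1 of 2 EpiSCm arrays, against all 4 ES cell arrays (10.30 to 10.76). The pluripotency factors Pou5f1 (12.57 to 13.90) and Nanog (9.52 to 12.88) were detected on all 24 arrays. Levels below are background-corrected, quantile-normalized log2 intensities, and array detection limits lay between 5.26 and 5.76 on that scale. A change is the difference of 2 group means of 2 arrays each, with its standard error (SE) from limma. It is called where the adjusted p over all tested genes is under 0.05, and p-values measure only the spread between these arrays. Levels of different probes are not compared. In such bulk samples, fewer cells of a type and less RNA per cell cannot be told apart.

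Promoter sequence from RefSeq (GRCm38.p6) was examined for 6 of the 10 genes. The stretches of 4 of them, from 250 bases before to 30 bases after the start of transcription, are shown because Id3, Id2 and Msx1 each differ in several of the comparisons described below and Smad6 holds a rare motif. Capitals mark GTCT or its reverse complement AGAC, the short element that Smad proteins bind, and GGCGCC, a GC-rich element bound by BMP-activated Smads that reads the same on both strands. CATTGT or its reverse complement ACAATG, a core Sox element, was also searched and is absent from all 4.
Id3: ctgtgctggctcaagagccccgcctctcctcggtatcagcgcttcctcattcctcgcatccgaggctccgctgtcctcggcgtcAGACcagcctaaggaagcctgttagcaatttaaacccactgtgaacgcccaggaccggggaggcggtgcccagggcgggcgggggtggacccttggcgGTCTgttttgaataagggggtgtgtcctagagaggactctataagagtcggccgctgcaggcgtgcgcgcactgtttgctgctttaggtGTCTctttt
Id2: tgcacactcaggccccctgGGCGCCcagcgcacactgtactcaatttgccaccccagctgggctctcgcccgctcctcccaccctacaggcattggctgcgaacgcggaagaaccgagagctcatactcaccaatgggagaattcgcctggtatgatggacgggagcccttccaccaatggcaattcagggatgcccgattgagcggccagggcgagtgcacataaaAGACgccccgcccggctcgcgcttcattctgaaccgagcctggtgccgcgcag
Msx1: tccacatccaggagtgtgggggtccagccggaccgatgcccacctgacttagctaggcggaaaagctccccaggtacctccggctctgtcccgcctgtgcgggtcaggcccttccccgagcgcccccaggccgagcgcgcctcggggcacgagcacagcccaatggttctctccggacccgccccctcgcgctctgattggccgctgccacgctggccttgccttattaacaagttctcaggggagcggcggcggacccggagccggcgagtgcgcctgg
Smad6: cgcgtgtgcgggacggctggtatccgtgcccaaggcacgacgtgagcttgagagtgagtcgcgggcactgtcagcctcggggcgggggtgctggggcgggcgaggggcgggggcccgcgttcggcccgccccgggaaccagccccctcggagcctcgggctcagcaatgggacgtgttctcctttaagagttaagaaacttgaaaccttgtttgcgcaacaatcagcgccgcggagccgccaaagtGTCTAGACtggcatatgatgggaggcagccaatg
The Id3 stretch lies on the + strand of chr4:136143572-136143851, while the Id2 stretch (chr12:25096063-25096342), the Msx1 stretch (chr5:37824556-37824835) and the Smad6 stretch (chr9:64022030-64022309) lie on the - strand. Id3 holds 3 copies of GTCT or AGAC and Id2 holds 1 together with 1 GGCGCC that begins at position -231, counted from the first transcribed base as 1, whereas the Msx1 stretch holds none of these letters. In Smad6 the pair abuts to form the palindrome GTCTAGAC, beginning at position -4 and made of 1 GTCT and 1 AGAC, each also counted on its own. Among 32817 promoter stretches of the same 280 bases, GTCT or AGAC occurs in 86.2%, GGCGCC in 10.9%, CATTGT or ACAATG in 11.9% and GTCTAGAC in 0.192%. These matches describe the letters only.

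Bmp4, the ligand that the extraembryonic ectoderm of the embryo sends to the epiblast, had by far its highest level in F9 cells. Its log2 intensity was 12.26 and 12.51 in F9-Sox2, against 12.19 and 12.06 in F9 EC. In ES cells it was 8.80 and 8.90 (ESCm) and 7.90 and 7.75 (ESCf). The 4 F9 arrays stood more than 3 log2 units above every other array, and the ES cell arrays came next, above all EpiSC and P19 arrays. Among the rest, P19 EC had 7.01 and 7.13 and the remaining 7 groups ranged from 5.28 to 7.11. F9 EC exceeded ESCm 9.64-fold (log2 3.27, SE 0.25, limma adjusted p = 1.1e-08), and P19 EC was 33.3-fold lower than F9 EC (log2 -5.06, SE 0.25, adjusted p = 1.2e-11). Both calls were kept under all 11 alternatives run for each.

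In EpiSCs Bmp4 sat close to the detection limit. Values were 6.14 and 5.83 in EpiSCf and 5.88 and 5.28 in EpiSCm, of which the last array did not detect it. EpiSCf was 3.59-fold lower than ESCf (log2 -1.84, SE 0.25, limma adjusted p = 5.8e-06) and EpiSCm 9.68-fold lower than ESCm (log2 -3.28, SE 0.25, adjusted p = 2.7e-09), with no overlap of arrays in either pair and with both calls kept under all 11 alternatives. Bmp4 also fell in P19-Sox2, where it was 6.18 and 6.05, against 7.01 and 7.13 in P19 EC (log2 -0.95, SE 0.25, adjusted p = 0.021). That call was lost without each of the 4 arrays in turn (log2 -1.02 to -0.89) and held under 6 of 11 alternatives (adjusted p 0.0071 to 0.13). In EpiSox2mL2 the arrays disagreed, at 6.14 and 7.11, and the rise over EpiSCm (log2 1.05, SE 0.25, adjusted p = 0.0066) became 0.56 without EpiSox2mL2 replicate 2 and 0.74 without EpiSCm replicate 2. Neither of these passed the test, and over 11 alternatives the adjusted p ran between 5.6e-04 and 0.13. EpiSox2mE2, at 6.20 and 6.45, was also called above EpiSCm (log2 0.74, adjusted p = 0.036), but the call held under only 5 of 11 alternatives (adjusted p 0.014 to 0.33). It was lost without EpiSCm replicate 2 (0.44), EpiSox2mE2 replicate 1 (0.87) or EpiSox2mE2 replicate 2 (0.62). Against EpiSox2mL2 neither culture in ES cell medium was called (log2 -0.62 for EpiSox2mE1 and -0.30 for EpiSox2mE2), although both were without EpiSox2mL2 replicate 1 (-1.10 and -0.79).

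Bmp7, a ligand of the same family, was detected on 10 of 24 arrays, 8 of them the arrays of the GOF18 family. It stood at 6.20 and 6.88 in EpiSox2mE1, 7.03 and 6.67 in EpiSox2mE2, 6.61 and 5.80 in EpiSox2mL2 and 6.06 and 5.78 in EpiSCm. Outside this family single arrays of P19-Sox2 (5.59) and P19 EC (5.74) detected it, and the F9, female EpiSC and ES cell arrays did not. EpiSox2mE2 was 1.90-fold above EpiSCm (log2 0.93, SE 0.26, limma adjusted p = 0.012), without overlap of arrays. The call held under 7 of 11 alternatives (adjusted p 0.0040 to 0.10) and was lost without EpiSCm replicate 2 (0.79) and without EpiSox2mE2 replicate 1 (0.75). EpiSCm was at least 1.36-fold above ESCm (log2 0.64, adjusted p = 0.037), a call that held under 5 of 11 alternatives and was lost without ESCm replicate 1 (0.43) and EpiSCm replicate 1 (0.50). P19 EC was called above F9 EC (log2 1.11, adjusted p = 0.0014) with 1 of 2 P19 EC arrays detecting it and no F9 EC array, so no fold is given. The fit also called Bmp7 lower in EpiSCf than in ESCf (log2 -0.65) and lower in F9 EC than in ESCm (log2 -0.69), though no array of these groups detected it. The first of these calls was lost without each of its 4 arrays (-0.78 to -0.52), and the second without ESCm replicate 2 (-0.48), F9 EC replicate 1 (-0.78) or F9 EC replicate 2 (-0.60). EpiSox2mE1 was not called above EpiSCm (log2 0.62, SE 0.26) except without EpiSox2mE1 replicate 1 (0.97), nor EpiSox2mE2 above EpiSox2mL2 (log2 0.64) except with an offset of 50 (0.46) or without EpiSox2mL2 replicate 1 (1.05).

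Id1, the Id gene most often used as a readout of BMP signalling, was detected on all 24 arrays. F9-Sox2 had 9.99 and 10.05 and F9 EC 10.59 and 10.52. P19-Sox2 stood at 9.90 and 10.02, P19 EC at 9.15 and 8.86. The EC lines thus held the 4 highest group means, above ESCm at 8.62 and 8.49. Lower down, the arrays labelled Epi-Sox2f had 8.58 and 8.24, EpiSCf 7.93 and 7.96, and ESCf 7.18 and 7.31. In the GOF18 family Id1 was 7.12 and 7.04 in EpiSox2mE1, 7.96 and 7.29 in EpiSox2mE2, 5.79 and 5.68 in EpiSox2mL2 and 6.22 and 6.31 in EpiSCm. EpiSox2mL2 was the lowest group of the series, and within the family both groups in ES cell medium lay above both groups in the other cultures, without overlap.

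Differences in Id1 ran opposite ways in the female and the male pair. EpiSCf was 1.62-fold higher than ESCf (log2 0.70, SE 0.17, limma adjusted p = 0.0020), whereas EpiSCm was 4.89-fold lower than ESCm (log2 -2.29, SE 0.17, adjusted p = 2.0e-09), and both calls were kept under all 11 alternatives. With Sox2 labelled as overexpressed, Id1 rose 1.94-fold in P19-Sox2 over P19 EC (log2 0.95, SE 0.17, adjusted p = 0.0013), kept under all 11 alternatives. It was not called in F9-Sox2 (log2 -0.53, SE 0.17, adjusted p = 0.062, with 0.021 to 0.24 over 11 alternatives). F9 EC exceeded ESCm 3.99-fold (log2 2.00, adjusted p = 4.3e-08), and P19 EC lay 2.93-fold below F9 EC (log2 -1.55, adjusted p = 5.2e-07). In the GOF18 family Id1 rose over EpiSCm 1.76-fold in EpiSox2mE1 (log2 0.81, adjusted p = 0.0018) and 2.57-fold in EpiSox2mE2 (log2 1.36, adjusted p = 1.4e-05). Against EpiSox2mL2 it was 2.54-fold higher in EpiSox2mE1 and 3.70-fold higher in EpiSox2mE2, and these 4 calls were kept under all 11 alternatives. The fall in EpiSox2mL2 against EpiSCm (log2 -0.53, adjusted p = 0.034) was lost without each of the 4 arrays in turn and held under 3 of 11 alternatives (adjusted p 0.015 to 0.15).

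Id2, which like the other Id proteins blocks E proteins, had a different order of groups. ESCf had the highest level, 9.59 and 9.75, and ESCm had 8.82 and 8.67. P19-Sox2 (9.13 and 9.28), P19 EC (9.02 and 9.0), the arrays labelled Epi-Sox2f (9.21 and 9.01) and EpiSCf (9.02 and 8.76) lay close together, each overlapping its neighbour in the order. F9-Sox2 had 7.75 and 7.88, against 8.64 and 8.65 in F9 EC. That pair did not overlap, and Id2 fell 1.78-fold in F9-Sox2 (log2 -0.83, SE 0.20, limma adjusted p = 0.012). The call was lost without F9 EC replicate 1, F9 EC replicate 2 or F9-Sox2 replicate 1 (log2 -0.84, -0.82 and -0.77) and held under 7 of 11 alternatives (adjusted p 8.7e-04 to 0.095). EpiSCf was 1.72-fold below ESCf (log2 -0.78, adjusted p = 0.0026) and EpiSCm 8.11-fold below ESCm (log2 -3.02, adjusted p = 3.6e-10), both kept under all 11 alternatives.

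Within the GOF18 family Id2 split the groups differently from Id1 and Id3. It was 7.24 and 7.15 in EpiSox2mE1, 5.20 and 5.95 in EpiSox2mE2, 7.70 and 7.38 in EpiSox2mL2 and 5.96 and 5.50 in EpiSCm. EpiSox2mL2 and EpiSox2mE1 were high, and EpiSox2mE2 and EpiSCm overlapped near the detection limit. The rises over EpiSCm were 3.51-fold in EpiSox2mL2 (log2 1.81, limma adjusted p = 5.4e-06) and 2.76-fold in EpiSox2mE1 (log2 1.47, adjusted p = 2.9e-05), and EpiSox2mE2 was 3.89-fold below EpiSox2mL2 (log2 -1.96, adjusted p = 7.8e-07). All 3 were kept under all 11 alternatives. They rest on 1 of 2 probes, since the second probe (ILMN_2887239) was undetected on all 8 arrays of the family, with group means of 4.48 to 4.57. Over the 12 group means the Id2 probes correlated at 0.906, a description over groups that share a platform. The second probe also placed EpiSCf below ESCf (log2 -1.05, adjusted p = 0.0033) and EpiSCm below ESCm (log2 -2.09, adjusted p = 2.5e-06).

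Id3 shared more of its pattern with Id1. P19-Sox2 was highest at 8.49 and 8.65, against 7.84 and 7.61 in P19 EC. F9-Sox2 had 7.68 and 7.51 and F9 EC 7.40 and 6.81. Values in the arrays labelled Epi-Sox2f (7.57 and 7.40), EpiSCf (7.31 and 7.40) and ESCm (7.44 and 7.04) lay within the span of the F9 arrays, and ESCf was lower at 6.30 and 6.35. In the GOF18 family Id3 was 6.09 and 5.53 in EpiSox2mE1, 6.49 and 7.06 in EpiSox2mE2, 4.58 and 4.68 in EpiSox2mL2 and 6.06 and 5.41 in EpiSCm. Neither EpiSox2mL2 array detected it, so folds against that group are lower bounds, taken from the array detection limit.

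As for Id1, EpiSCf was higher than ESCf in Id3 (2.05-fold, log2 1.04, SE 0.24, limma adjusted p = 0.0013) and EpiSCm lower than ESCm (2.85-fold, log2 -1.51, adjusted p = 2.6e-05), both kept under all 11 alternatives. P19-Sox2 rose 1.80-fold over P19 EC (log2 0.85, adjusted p = 0.031), although the call was lost without each of the 4 arrays in turn (0.73 to 0.97) and held under 4 of 11 alternatives (adjusted p 0.0041 to 0.20). EpiSox2mL2 was at least 1.36-fold below EpiSCm (log2 -1.10, adjusted p = 0.0036). That call held under 10 of 11 alternatives and became -0.77 (adjusted p = 0.059, the highest of the 11) without EpiSCm replicate 1. EpiSox2mE2 exceeded EpiSCm 2.06-fold (log2 1.04, adjusted p = 0.0035), with 0.72 without EpiSCm replicate 2 and 0.76 without EpiSox2mE2 replicate 2, neither of which passed the threshold, and the call held under 7 of 11 alternatives (adjusted p 0.0015 to 0.075). Against EpiSox2mL2, Id3 was at least 1.44-fold higher in EpiSox2mE1 (log2 1.18, adjusted p = 0.0012) and at least 2.81-fold higher in EpiSox2mE2 (log2 2.14, adjusted p = 2.7e-06), kept under all 11 alternatives. P19 EC was called above F9 EC (log2 0.62, adjusted p = 0.039) under the stated settings and under 5 of 11 alternatives, but it was lost without F9 EC replicate 2 (0.32), P19 EC replicate 1 (0.50) or P19 EC replicate 2 (0.74).

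Msx1, a homeobox gene induced by BMP signalling in mesoderm and neural crest, was highest in the Sox2 cultures of the GOF18 line in ES cell medium, and no array of ESCf or ESCm detected it. Its level was 8.13 and 8.03 in EpiSox2mE1 and 7.61 and 8.10 in EpiSox2mE2, against 5.39 and 4.65 in EpiSox2mL2 and 5.82 and 5.03 in EpiSCm. All 4 arrays in ES cell medium stood above every other array of the series, while the other 2 groups of the family overlapped at the detection limit, with 1 of 2 arrays detecting Msx1 in each. The rise over EpiSCm was 6.31-fold in EpiSox2mE1 (log2 2.66, SE 0.29, limma adjusted p = 2.3e-06) and 5.40-fold in EpiSox2mE2 (log2 2.43, SE 0.29, adjusted p = 6.6e-06). Over EpiSox2mL2 it was 8.32-fold in EpiSox2mE1 and 7.13-fold in EpiSox2mE2 (log2 3.06 and 2.83), and all 4 calls were kept under all 11 alternatives.

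Outside that family Msx1 was detected on both arrays of P19-Sox2 (6.24 and 6.10) and P19 EC (6.33 and 6.64) and on 1 EpiSCf array (5.88). F9 and ES cell arrays did not detect it. P19 EC was at least 1.68-fold above F9 EC (log2 2.00, limma adjusted p = 1.2e-05), kept under all 11 alternatives, and P19-Sox2 was not called against P19 EC (log2 -0.31, SE 0.29). EpiSCm was not called above ESCm (log2 0.54, SE 0.29) except without EpiSCm replicate 2 (0.94), and EpiSCf was not called above ESCf (log2 0.49) except with only the groups compared in the fit (adjusted p = 0.024, with 0.024 to 0.42 over 11 alternatives). Msx2, the paralogous homeobox gene, stayed between 4.41 and 4.89 on all 24 arrays, below every detection limit.

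Smad6, the inhibitory Smad that competes with Smad4 for activated Smad1, spanned the narrowest range of group means among the 7 tested members. On the brighter probe (ILMN_2773835) it was 6.65 and 6.92 in EpiSCf, 6.88 and 7.04 in ESCf and 6.66 and 6.35 in ESCm. F9-Sox2 had 6.34 and 6.34, against 5.36 and 5.82 in F9 EC, a difference that was not called (log2 0.75, SE 0.26, limma adjusted p = 0.078). It was called under 3 of 11 alternatives (adjusted p 0.0091 to 0.45): median scaling, an offset of 50 and the mean of both probes. EpiSCm, at 5.66 and 5.60, was 1.84-fold below ESCm (log2 -0.88, adjusted p = 0.0057), and F9 EC 1.89-fold below ESCm (log2 -0.92, adjusted p = 0.0067). Each of these calls held under 9 of 11 alternatives. The first was lost without ESCm replicate 1 (-0.73) and with the mean of both probes (-0.27, adjusted p = 0.18, the highest of the 11), and the second without ESCm replicate 1 (-0.77) or F9 EC replicate 1 (-0.69). In the GOF18 family Smad6 was 5.78 and 5.05 in EpiSox2mE1, 5.60 and 4.74 in EpiSox2mE2 and 5.15 and 5.51 in EpiSox2mL2, each with 1 of 2 arrays detecting it. It was not called against EpiSCm except in EpiSox2mE2 without its replicate 1 (log2 -0.89). The second Smad6 probe (ILMN_3008748) put EpiSCm above ESCm (log2 0.33, adjusted p = 0.28). Over the 12 group means the Smad6 probes correlated at only 0.0907, so the order of groups for Smad6 depends on the probe. Bambi stayed between 4.39 and 4.77 on all 24 arrays.

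**Figure D1:**
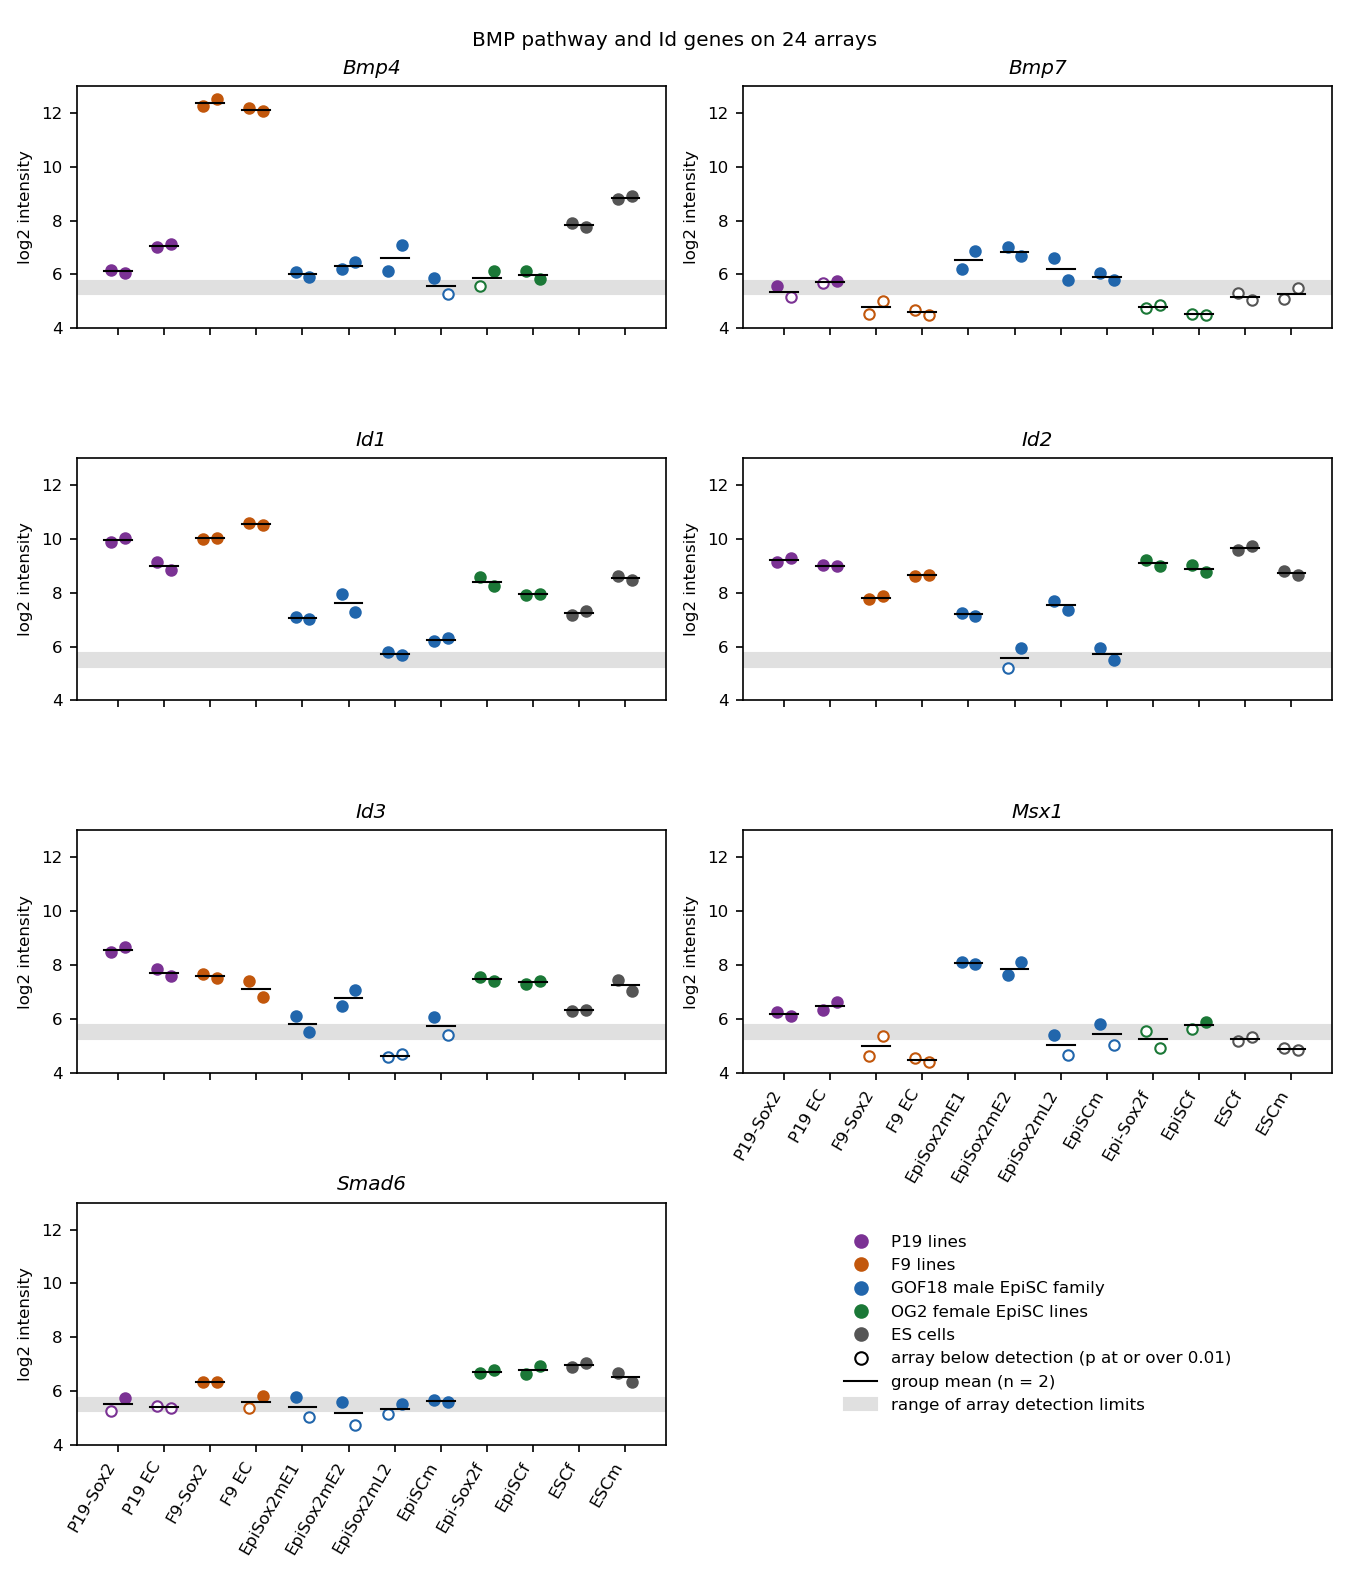
Log2 intensity (vertical axis) of the 7 tested genes on each of 24 arrays in 12 groups (horizontal axis), with a bar at each group mean of 2 arrays, open points where the array did not detect the probe, and a band for the range of array detection limits, 5.26 to 5.76. Bmp4 stands out in F9-Sox2 and F9 EC (12.06 to 12.51), and Msx1 in EpiSox2mE1 and EpiSox2mE2 (7.61 to 8.13).

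Across the 12 group means Id1 and Id3 correlated at 0.849 (Pearson), and at 0.562 over the 8 groups outside the GOF18 family. Bmp4 and Id1 correlated at 0.643, and at 0.588 over those 8 groups. Both of these values include F9-Sox2 and F9 EC, whose Bmp4 means (12.39 and 12.12) lie far above the next, 8.85 in ESCm. The correlation without the F9 groups was not computed, so tracking of Bmp4 by Id1 across the other lines is not shown. Bmp4 and Id3 correlated at 0.226 over the 12 groups and at -0.252 over the 8. Other pairs changed sign too: Bmp4 and Id2 (0.201 and -0.717), Id1 and Id2 (0.473 and -0.611) and Id1 and Smad6 (0.094 and -0.770). The members thus did not move as 1 set. These coefficients are descriptions: the groups share cell lines, controls and array brightness. P19-Sox2 had the third highest mean of Id1 (9.96) and the eighth of Bmp4 (6.11).

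**Figure D2:**
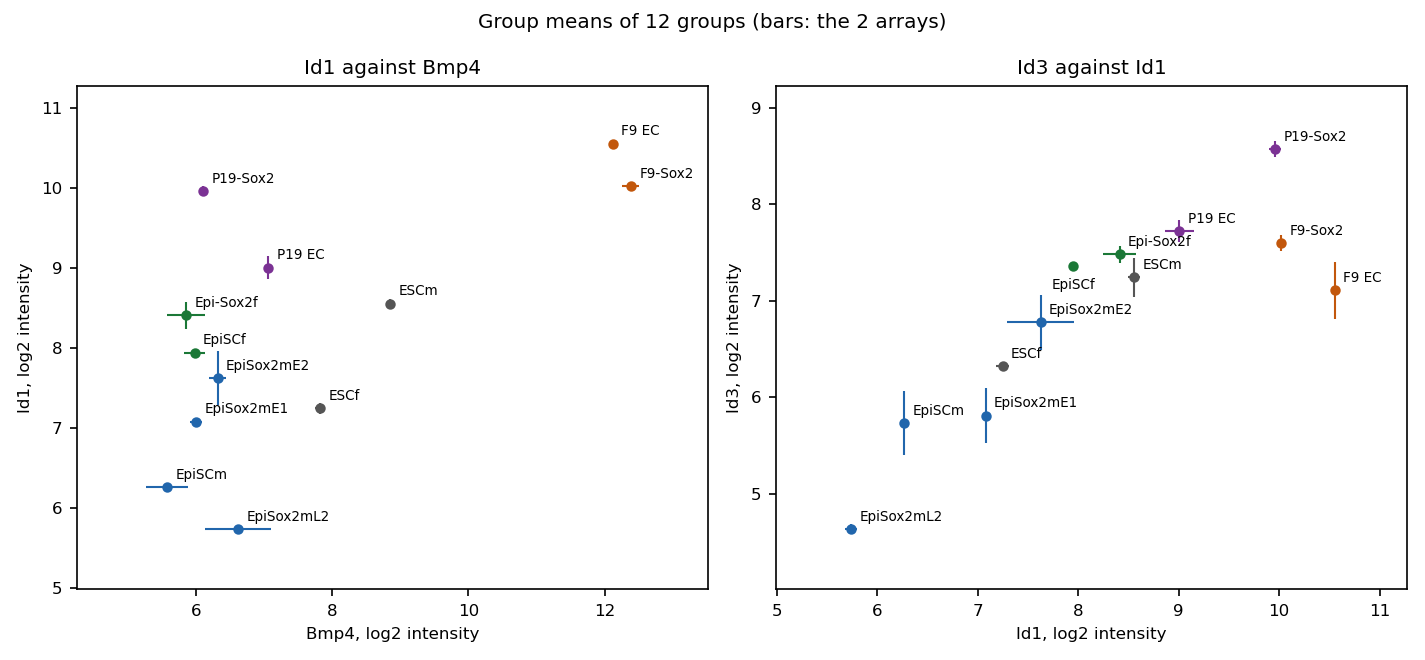
Group means of Id1 against Bmp4 (left) and of Id3 against Id1 (right) in log2 intensity for the 12 groups, with bars that span the 2 arrays of a group. F9-Sox2 and F9 EC lie far to the right on Bmp4 (12.39 and 12.12), and EpiSox2mL2 is lowest on both Id1 (5.74) and Id3 (4.63).

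Over all 8932 genes tested, the 5 genes whose group means followed Id1 most closely were Cenpn (r = 0.932), Sec23b, Cnga4, Armc6 and Zfp62 (r = 0.922 for the last). For Id3 they were Olfr536 (0.942), Adamts15, Chordc1, BC055324 and Gtpbp8 (0.910), and for Bmp4 they were Fancd2os (0.983), Nr5a2 (0.970), En2, Ubac1 and Bnc2 (0.944). No member was among them. Each r is over 12 group means, and over the 8 groups outside the GOF18 family the values ran from 0.694 (Chordc1 with Id3) to 0.991 (Fancd2os with Bmp4). These genes were picked as the highest of 8931, so high values follow from the choice. For Bmp4 both sets of groups include F9-Sox2 and F9 EC, so a gene high in F9 cells alone would also give a high r.

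The comparison of EpiSCs with ES cells sets the primed against the naive state. State and culture conditions cannot be told apart in either pair. In the female OG2 background Bmp4 and Id2 were lower and Id1 and Id3 higher in EpiSCf than in ESCf. Counting the Bmp7 call below detection, 2 of the 7 tested members were called up and 3 down, where 60.2% of all tested genes were called, 32.9% up and 27.3% down. In the male pair, EpiSCm against ESCm, Bmp7 was called up and Bmp4, Id1, Id2, Id3 and Smad6 down, where 69.7% of genes were called, 41.1% up and 28.6% down. Both pairs thus had less Bmp4 and Id2 in the EpiSCs than in the ES cells and differed in Id1 and Id3. The difference between the female and the male change was itself called for Id1 (log2 2.99, SE 0.24), Id3 (2.55, SE 0.34), Id2 (2.24), Bmp4 (1.43) and Bmp7 (-1.29), 4 of 7 positive and 1 negative, where 50.7% of genes were called, 23% positive and 27.6% negative. All 5 were kept under the 15 alternatives run. The male pair sets 2 dim arrays against 2 bright ones, so state, line and array brightness cannot be told apart. The pairs differ in sex as well as in line, which cannot be told apart either. Scaling arrays to a common median instead of quantile normalization moved the median change of all genes to 0.24 in the female and -0.17 in the male pair, against 0.07 and 0.18. Relative to that median Id1 was 0.71 in the female and -2.51 in the male pair.

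Of the 65 other pathway genes listed, 59 had a probe and 36 were tested. In EpiSCf against ESCf, 17 rose and 10 fell, where 32.9% of all tested genes were called up and 27.3% down. The ligand Gdf3 was 34.0-fold lower (log2 -5.09), and Gdf9 was at least 1.19-fold lower, with 0 of 4 tested ligands up and 3 down. Of 7 receptors 4 were called up, among them Acvr2b (log2 1.68), and 1 down, the co-receptor Eng (log2 -1.95). Of the 9 Smads and regulators 6 rose, among them the Smad-binding repressor Zeb2 (log2 2.12), and the ubiquitin ligase Smurf1 fell (-1.69). The secreted antagonists Chrd (log2 2.02) and Nbl1 (1.47) led 3 of 6 that rose. Among 10 other targets and Id partners 4 rose and 5 fell, with Gata2 (-3.19) and Gata3 (-2.84) both undetected in EpiSCf.

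In EpiSCm against ESCm 11 pathway genes rose and 15 fell, where 41.1% of all tested genes were called up and 28.6% down. Gdf3 fell (log2 -1.17) and Bmp8b rose (0.64) among 4 ligands, while 1 of 7 receptors rose and 4 fell, led by Eng (log2 -1.33) and the BMP receptor Bmpr1a (-1.23). The convertase Furin (1.63), which cleaves ligand precursors, and Smad4 (1.23) led 5 of 9 Smads and regulators up, with 3 down. The antagonists Fst (2.93) and Chrd (2.54) led 3 of 6 up, with 1 down. Gata2 (-2.49) and Cdx2 (-1.70) led 6 of 10 targets down, with 1 up. Markers of other cells were measured alongside. The summed intensity of 12 fibroblast and feeder markers was 1678 to 2093 in EpiSCf and 2189 to 2233 in ESCf. It was 1192 to 1233 in EpiSCm and 1692 to 1717 in ESCm. Thy1 and Fbln1 were detected on both arrays of every group of the series. Undetected markers also add to the sum, so it does not measure feeder cells alone. The collagen markers Col1a1 and Col3a1 were detected on both arrays of each ES cell group and on both arrays of neither EpiSC group. Trophoblast markers were also lower in EpiSCs: 8 of them summed to 326 to 388 in EpiSCf, 3834 to 3835 in ESCf, 535 to 538 in EpiSCm and 3410 to 3543 in ESCm, with Eomes alone detected on both arrays of EpiSCf and Cdx2, Eomes and Tfap2c on both arrays of each ES cell group. Neural markers were higher in EpiSCs, where 6 of them summed to 516 to 542 in EpiSCf, 216 to 225 in ESCf, 563 to 601 in EpiSCm and 212 to 224 in ESCm, with Nes alone detected on both arrays. The 7 mesoderm markers summed to 256 to 268 in EpiSCf, 262 to 264 in ESCf, 504 to 638 in EpiSCm and 212 to 224 in ESCm. The part of such cells in the member differences was not tested.

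**Figure D3:**
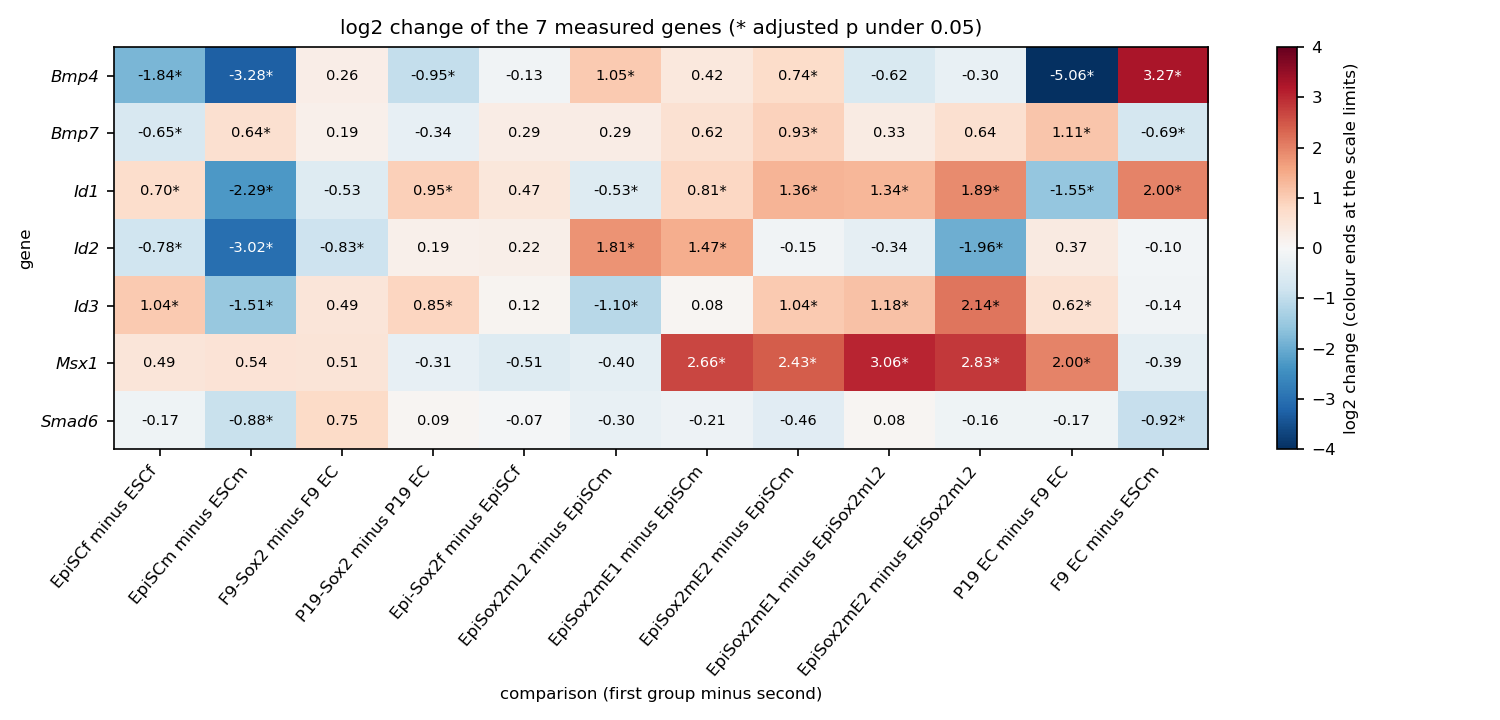
Log2 change (colour and number) of the 7 tested genes (rows) in 12 comparisons (columns, first group minus second), with an asterisk at adjusted p under 0.05. Id1 is 0.70 in EpiSCf minus ESCf and -2.29 in EpiSCm minus ESCm, and Msx1 lies between 2.43 and 3.06 in the 4 comparisons of cultures in ES cell medium.

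The EC lines labelled as overexpressing Sox2 were set against the same lines without it, which already express Sox2. The number of clones and the passage are not given, so added Sox2 and the history of each derived line cannot be told apart. In F9-Sox2 Id2 fell and nothing else among the members was called, 1 of 7, where 9.72% of tested genes were called, 5.36% up and 4.36% down, and 3 members had an unadjusted p under 0.05. P19-Sox2 showed higher Id1 and Id3 and lower Bmp4 than P19 EC, 2 of 7 up and 1 down, where 10.4% were called, 5.89% up and 4.51% down. Of the calls in P19-Sox2 only Id1 was kept under all 11 alternatives, while Bmp4 held under 6 and Id3 under 4. The Id2 call in F9-Sox2 held under 7 of 11. The changes in the lines differed by the test of the difference itself for Bmp4 (F9 minus P19 change, log2 1.22, SE 0.36, limma adjusted p = 0.039), Id1 (-1.48, SE 0.24, adjusted p = 6.5e-04) and Id2 (-1.02, SE 0.28, adjusted p = 0.028), 1 of 7 positive and 2 negative, where 9.99% of genes were called, 4.84% positive and 5.15% negative. Of these, Id1 was kept under all 15 alternatives, while Bmp4 held under 5 and Id2 under 7 of 15. Bmp4 lost the call without any of the 8 arrays, and Id2 without any of them but P19-Sox2 replicate 1.

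Id4, the remaining Id gene, rose in both lines: 7.14 and 7.15 in F9-Sox2, against 5.95 and 5.81 in F9 EC (2.41-fold, log2 1.27, SE 0.13), and 7.07 and 7.14 in P19-Sox2, against 6.02 and 6.09 in P19 EC (2.07-fold, log2 1.05, SE 0.13). In F9-Sox2 6 of the 36 pathway genes rose and 1 fell, where 5.36% of all genes were called up and 4.36% down. Those that rose include Hey1 (log2 1.12), a repressor of the Hes family, and the co-receptor Rgma (0.93). Bmp8b (0.80) and Eng (0.99) were called at or below the detection limit. None of 9 Smads and regulators or of 6 antagonists was called by limma there, with 1 each at an unadjusted p under 0.05. P19-Sox2 had 5 up and 3 down, where 5.89% of all genes were called up and 4.51% down: Rgma (1.32), Furin (0.83) and Gdf3 (0.58) rose, and Zeb2 (-1.22) and the antagonist Nog (-1.02) were undetected in P19-Sox2. In P19-Sox2 the primed marker Fgf5 stood at 9.31 and 9.22, against 7.14 and 7.41 in P19 EC. The 8 trophoblast markers summed to 4100 to 4306 in F9-Sox2, against 1515 to 1594 in F9 EC, with Eomes and Tfap2c detected in both groups and 6 in neither, and to 1434 to 1594 in P19-Sox2, against 1613 to 1694 in P19 EC. Extraembryonic endoderm markers summed to 1111 to 1209 in F9-Sox2, against 1699 to 1734 in F9 EC. Their part in the member changes was not tested. Cdx2, the caudal homeobox gene of trophoblast and posterior mesoderm, had the largest change, 4.87 and 4.65 in P19-Sox2, against 7.69 and 7.66 in P19 EC.

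The arrays labelled Epi-Sox2f differed from EpiSCf in 28.9% of tested genes, 13.5% up and 15.3% down, and in 0 of the 7 tested members by limma, with 1 member, Id1, at an unadjusted p under 0.05 (log2 0.47, SE 0.17, adjusted p = 0.052). Id1 passed the threshold under 4 of 11 alternatives (adjusted p 0.031 to 0.36), among them the fit with the replicate number as a block (adjusted p = 0.047) and the one without Epi-Sox2f replicate 2 (log2 0.63). Among the 36 other pathway genes 4 rose and 5 fell. The follistatin-related Fstl1 (log2 0.87), Fst (0.74) and the receptor Acvr1 (0.52) rose. Furin (-1.26), the E protein Tcf4 (-0.66) and the Smad phosphatase Ppm1a (-0.46) fell, and Id4 was called (0.73) with no array of either group detecting it.

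EpiSox2mL2 was kept in EpiSC medium, and here the Id genes split. Id2 and Bmp4 rose over EpiSCm and Id1 and Id3 fell, 2 of 7 members up and 2 down, where 24.3% of tested genes were called, 12.9% up and 11.4% down. Of these 4, only Id2 was kept under all 11 alternatives. The change differed from that in the arrays labelled Epi-Sox2f for Id2 (log2 1.59, SE 0.28, limma adjusted p = 4.5e-04), Id3 (-1.22), Bmp4 (1.17) and Id1 (-1.0), 2 of 7 positive and 2 negative, where 32.2% of genes were called, 17.2% positive and 15% negative. For Id2 that difference was lost with the mean of both probes (0.62, adjusted p = 0.087, the highest of 15), and for Bmp4 it was lost without EpiSox2mL2 replicate 2 (0.69), Epi-Sox2f replicate 1 (0.90), EpiSCm replicate 2 (0.87) or EpiSCf replicate 1 (1.02). For Id3 it was lost without EpiSCm replicate 1 (-0.89, adjusted p = 0.065) and under median scaling (-0.83, adjusted p = 0.076, the highest of 15). Among the other pathway genes 3 rose and 4 fell: Eng (1.09) rose, as did Gdf9 (0.64) and Gata3 (0.79) with 1 array detecting each, and Chrd (-1.38), Gdf3 (-0.56), Hey1 (-0.45) and Rgma (-0.77) fell. Of 9 Smads and regulators 0 were called by limma, with 7 at an unadjusted p under 0.05. Fgf5 was lower in EpiSox2mL2 (7.99 and 8.0) than in EpiSCm, and the summed intensity of 9 naive markers was 6134 to 6526 in EpiSox2mL2, against 1259 to 1416 in EpiSCm.

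Every member called against EpiSCm in the cultures in ES cell medium was called up. EpiSox2mE1 had higher Msx1, Id2 and Id1 than EpiSCm, 3 of 7 up and 0 down, where 28.7% of genes were called, 13.2% up and 15.5% down. EpiSox2mE2 had higher Msx1, Id1, Id3, Bmp7 and Bmp4, 5 of 7 up and 0 down, where 28.4% were called, 12.4% up and 16% down. Scaled to a common median, the median change of all genes in EpiSox2mE2 was -0.25 (-0.03 under quantile normalization), and 2 members, Msx1 and Id1, were then called, at 2.02 and 1.17 relative to that median. Against EpiSox2mL2, Msx1, Id1 and Id3 were higher in EpiSox2mE1 (3 of 7 up, where 31.2% of genes were called, 14% up and 17.2% down) and in EpiSox2mE2, which also had less Id2 (3 of 7 up and 1 down, where 35.1% were called, 15.7% up and 19.5% down). All of these comparisons share arrays of EpiSCm or EpiSox2mL2. Medium, added Sox2 and the history of each derived culture cannot be told apart here.

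Fst, the secreted protein that binds activins and BMPs, changed most among the other pathway genes. Its level was 11.96 and 11.77 in EpiSox2mE1 and 11.73 and 11.50 in EpiSox2mE2, against 8.17 and 8.19 in EpiSox2mL2 and 8.37 and 7.63 in EpiSCm. The arrays in ES cell medium stood apart, 14.6-fold (EpiSox2mE1) and 12.3-fold (EpiSox2mE2) above EpiSCm. Cdx2 was 6.72 and 6.42 in EpiSox2mE1 and 6.40 and 6.23 in EpiSox2mE2, and undetected in EpiSCm and EpiSox2mL2, so that EpiSox2mE1 was at least 2.33-fold and EpiSox2mE2 at least 1.96-fold above EpiSCm. Hey1 rose over EpiSCm 1.92-fold in EpiSox2mE1 and 1.57-fold in EpiSox2mE2. Of 36 pathway genes 9 rose and 2 fell in EpiSox2mE1 against EpiSCm, where 28.7% of all genes were called, 13.2% up and 15.5% down. In EpiSox2mE2 9 rose and 0 fell, where 28.4% were called, 12.4% up and 16% down. Only the totals without direction, 11 and 9, are near these shares. Other leading calls over EpiSCm in EpiSox2mE1 were Bmp8a (log2 1.35), Gdf3 (0.50), Nbl1 (0.95), Smurf2 (0.65) and Zeb2 (-0.68). In EpiSox2mE2 they were Eng (1.13), Bmp8a (0.81), Smurf2 (0.64), Ppm1a (0.57) and Gdf3 (0.42). No receptor was called in EpiSox2mE1 by limma, with 2 of 7 at an unadjusted p under 0.05. Against EpiSox2mL2, 7 pathway genes rose and 3 fell in EpiSox2mE1, where 31.2% of all genes were called, 14% up and 17.2% down. In EpiSox2mE2 7 rose and 1 fell, where 35.1% were called, 15.7% up and 19.5% down. Chrd (0.83 and 0.94) and Gdf3 (1.06 and 0.99) were up in both. Bmp8a (0.94) was up in EpiSox2mE1, and Smad1 (0.40) was up and Bmp8b (-0.71) down in EpiSox2mE2. Receptors were not called by limma in either (1 of 7 at an unadjusted p under 0.05 in EpiSox2mE1 and 0 in EpiSox2mE2), nor were the 9 Smads and regulators in EpiSox2mE1 (2 at an unadjusted p under 0.05).

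Markers of other cell types also differed between the groups of this family, not all of them in step with Msx1 and Id1. The 11 measured extraembryonic endoderm markers summed to 583 to 597 in EpiSox2mE1 and 628 to 672 in EpiSox2mE2. In EpiSox2mL2 their sum was 730 to 783 and in EpiSCm 539 to 627. The summed intensity of 7 measured mesoderm markers was 1529 to 1543 in EpiSox2mE1 and 1238 to 1537 in EpiSox2mE2, against 196 to 205 in EpiSox2mL2 and 504 to 638 in EpiSCm, and Mixl1, Evx1 and Gsc were detected on both arrays of each group in ES cell medium, while 4 of the 7 markers in EpiSox2mE1 and 3 in EpiSox2mE2 were detected on no array. For 8 measured trophoblast markers the sum was 2039 to 2195 in EpiSox2mE1 and 1956 to 2001 in EpiSox2mE2, against 1257 to 1407 in EpiSox2mL2 and 535 to 538 in EpiSCm, with Cdx2, Eomes, Ascl2 and Tfap2c detected on both arrays in ES cell medium and 4 of 8 on none. The fibroblast and feeder sum was 1488 to 1491 in EpiSox2mE1 and 1563 to 1613 in EpiSox2mE2, against 972 in EpiSox2mL2 and 1192 to 1233 in EpiSCm, and Col1a1 was detected on both arrays of each group in ES cell medium alone within the family. The primed markers did not separate these groups from EpiSCm (sums of 42923 to 43544 in EpiSox2mE1 and 41556 to 41911 in EpiSox2mE2, against 40850 to 43662 in EpiSCm). The 9 naive markers summed to 4871 to 4987 in EpiSox2mE1 and 5094 to 6030 in EpiSox2mE2, against 1259 to 1416 in EpiSCm. The sum was thus higher than in EpiSCm, as in EpiSox2mL2. Of the 9, 4 were detected on both arrays of EpiSox2mE1, 5 of EpiSox2mE2, 5 of EpiSCm and 8 of EpiSox2mL2. Klf4 was detected on no array of EpiSox2mE1 or EpiSox2mE2. The 6 measured neural markers were lower, at 226 to 296 in EpiSox2mE1 and 213 to 328 in EpiSox2mE2, against 563 to 601 in EpiSCm, with Nes alone detected in each of these groups. The part of such cells in the rise of Msx1 and Id1 was not tested.

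**Figure D4:**
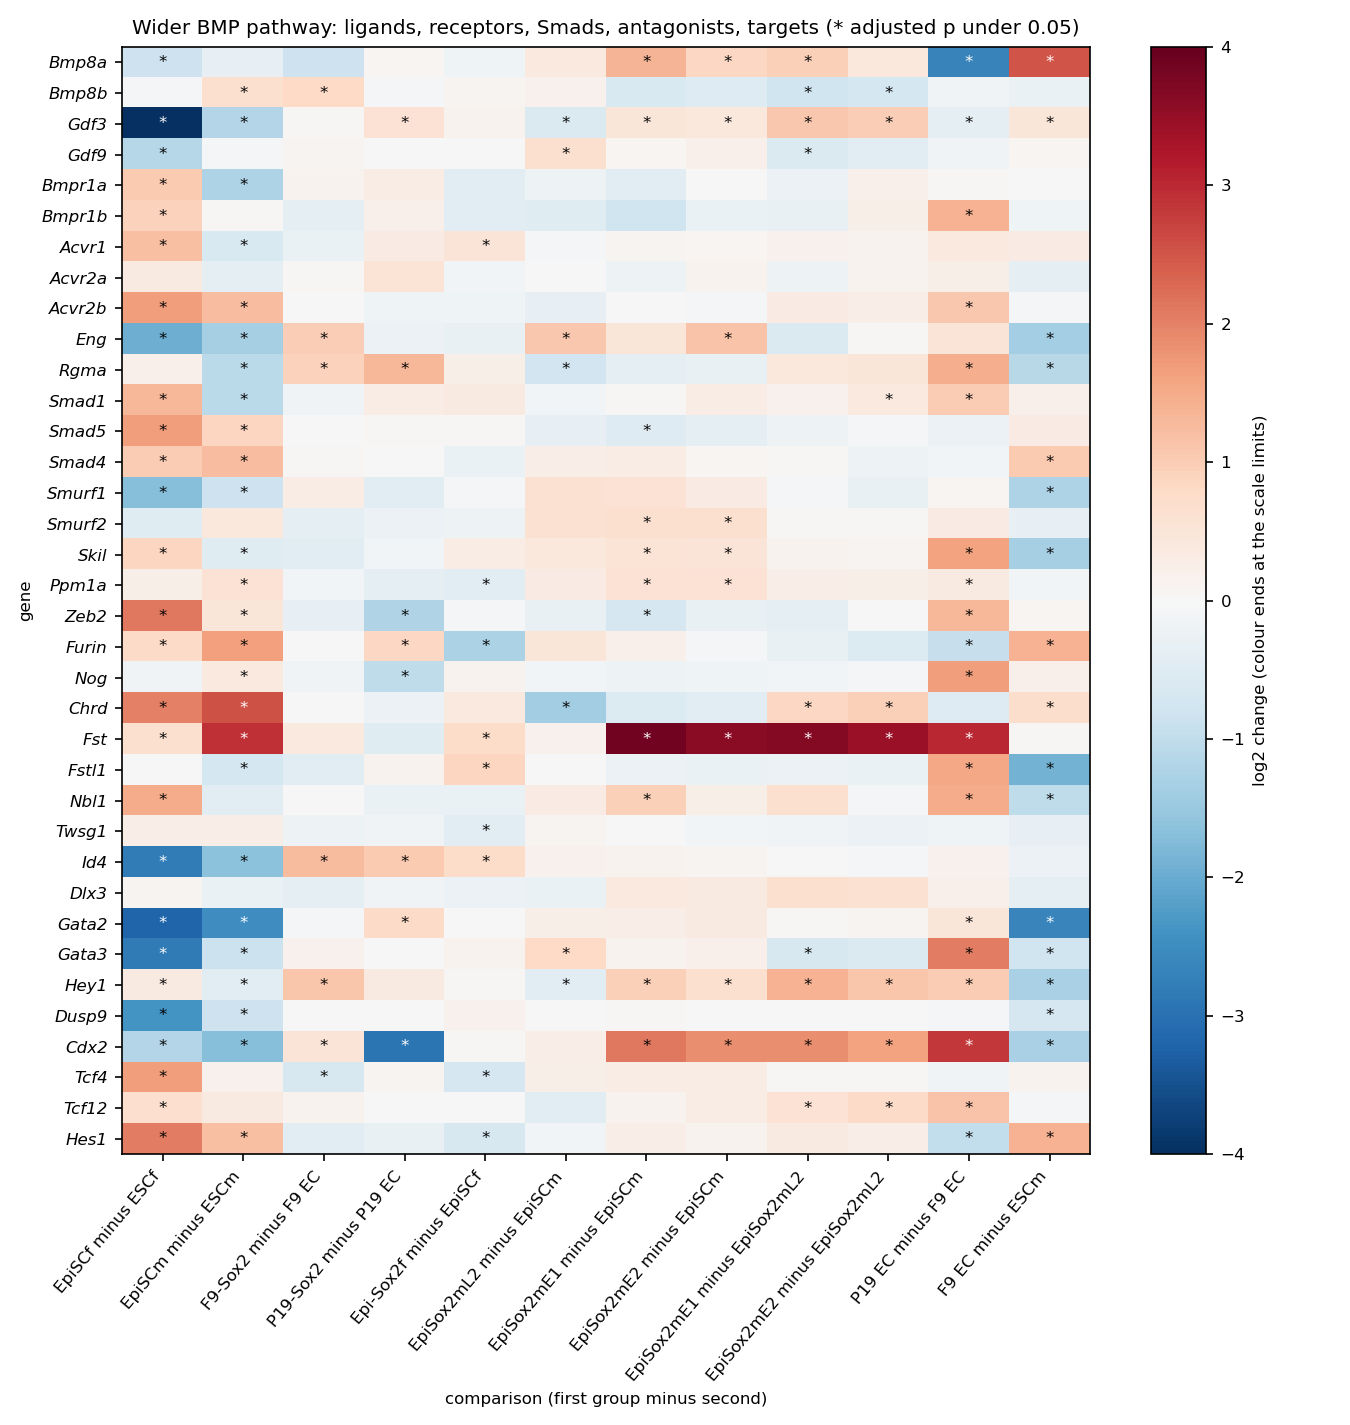
Log2 change (colour, ending at 4 in either direction) of 36 other BMP pathway genes (rows: ligands, receptors, Smads and regulators, antagonists, targets and Id partners) in 12 comparisons (columns, first group minus second), with an asterisk at adjusted p under 0.05. Fst lies between 3.44 and 3.86 in the 4 comparisons of cultures in ES cell medium, and Id4 is positive and called in F9-Sox2 (1.27) and P19-Sox2 (1.05).

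The EC lines themselves differed widely. P19 EC had less Bmp4 and Id1 and more Msx1, Bmp7 and Id3 than F9 EC, 3 of 7 members up and 2 down, where 55.1% of genes were called, 28% up and 27% down. F9 EC had more Bmp4 and Id1 and less Smad6 than ESCm and a Bmp7 call below detection, 2 of 7 up and 2 down, where 48.2% were called, 24.6% up and 23.6% down. Without F9 EC replicate 1 that count was 2, namely Bmp4 and Id1. In P19 EC against F9 EC, 16 of 36 pathway genes rose and 4 fell, with Fst (log2 3.01), Nog (1.66), Cdx2 (2.82), Gata3 (2.04), Skil (1.62), a Smad corepressor, Rgma (1.45), Bmpr1b (1.40) and Zeb2 (1.34) up and Bmp8a (-2.66) and Gdf3 (-0.40) down. In F9 EC against ESCm 6 rose and 11 fell, with Bmp8a (2.52), Furin (1.39), Hes1 (1.39) and Gdf3 (0.48) up and Gata2 (-2.65), Fstl1 (-1.89), Eng (-1.36), Skil (-1.32), Rgma (-1.10) and Nbl1 (-1.03) down. Fibroblast and feeder markers summed to 1177 to 1193 in P19 EC, 1128 to 1175 in F9 EC and 1692 to 1717 in ESCm. The 11 measured extraembryonic endoderm markers summed to 772 to 817 in P19 EC, 1699 to 1734 in F9 EC and 783 to 788 in ESCm. Of these, Sox7 and Lama1 were detected on both arrays of F9 EC and 8 on neither, whereas Gata6, Dab2, Amn and Lama1 were detected in P19 EC and in ESCm. The part of such cells in the Bmp4 level was not tested.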

How the data were processed

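The 24 samples, 300 ng of RNA each per the labels, were hybridised to Illumina MouseRef-8 v2 BeadChips. The authors deposited, per the file headers, a non-normalized signal (an intensity, the brightness of each probe) and a detection p-value for each of 25697 probes on each array. A second deposited table holds the authors' log2 values, whose columns share a median of 3.68. BeadStudio 3.2, RMA and lumi are named in the submitters' processing notes, without saying which made which values.

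Intensities were background-corrected with limma 3.58.1 in R 4.3.3 (normexp with detection p-values, offset 16), quantile-normalized over 24 arrays and taken to log2. A probe was kept where some group had a detection p under 0.01 on both of its arrays (13082, of which 12324 carried 1 gene symbol), and the brightest kept probe stood for each of 8932 genes. GEO's platform annotation gave 1 symbol to 23978 probes, and the other 1719 had no single symbol. For 23962 named probes the symbol was taken from RefSeq through the Entrez gene ID. The limma model held a mean for each of 12 groups (residual degrees of freedom 12, prior 5.58), and Benjamini-Hochberg adjustment ran over all tested genes for each of 12 comparisons and 3 differences of changes. Calls are at adjusted p under 0.05.

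A fold against a group in which no array detected the probe is a lower bound: the brighter mean over, for each dim array, the higher of its detection limit (its lowest signal among detected probes) and the probe's own signal. No fold is given where that is under 1. Replicates correlated at 0.985 to 0.995. Their number limits the precision of each change. Same-numbered arrays of compared groups had deviations correlated at -0.17 to 0.07, so the numbers were not taken as pairs.

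Named are all members with every probe, the count and the 2 largest calls of each pathway list, and the 5 genes closest in pattern to Id1, Id3 and Bmp4. The members and lists were chosen with earlier results of these data known. Promoter letters came from RefSeq (GRCm38.p6). The limma test was also run on simulated data with known changes and independent noise. That setting lacks the brightness differences between these arrays, so no conclusion on the calls is drawn from it.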

Additional observations from a re-analysis of the deposited data

Results flagged for a closer look

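The changes below differ between pairs of groups by a test of the difference itself (limma, Benjamini-Hochberg over all tested genes).

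The change in EpiSCf against ESCf minus the change in EpiSCm against ESCm was 1.43 for Bmp4 (adjusted p = 0.0030), -1.29 for Bmp7 (0.0073), 2.99 for Id1 (2.9e-08), 2.24 for Id2 (4.5e-06) and 2.55 for Id3 (8.5e-06), on the log2 scale. Bmp4 and Id2 fell in both pairs, Id1 and Id3 had opposite directions, and Bmp7 was detected in EpiSCm alone of these groups. The male EpiSC arrays were dimmer than the ESCm arrays, and the pairs differ in line and in sex. Line, sex and array brightness cannot be told apart.

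Between the EC lines, the change in F9-Sox2 against F9 EC minus that in P19-Sox2 against P19 EC was 1.22 for Bmp4 (adjusted p = 0.039), -1.48 for Id1 (6.5e-04) and -1.02 for Id2 (0.028). Every F9-Sox2 array was below every F9 EC array in Id1 and every P19-Sox2 array above every P19 EC array. The Id1 difference was kept under all 15 alternatives, whereas Bmp4 held under 5 and Id2 under 7 of 15.

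The change in EpiSox2mL2 against EpiSCm minus that in the arrays labelled Epi-Sox2f against EpiSCf was 1.17 for Bmp4 (adjusted p = 0.018), -1.0 for Id1 (0.0049), 1.59 for Id2 (4.5e-04) and -1.22 for Id3 (0.011). The Id1 difference was kept under all 15 alternatives, and the Bmp4 difference held under 10 of 15. For Id2 it was lost with the mean of both probes (0.62). The Id3 difference was lost under median scaling (-0.83) and without EpiSCm replicate 1 (-0.89).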

How the results depend on the processing

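Every member was recomputed in all 15 comparisons and differences under 8 kinds of alternative. No called change turned its direction. Under median scaling 95 of 105 member results kept their side of the threshold, under an offset of 50 they were 96, with the authors' log2 values 97, with no filter on detection 97, with the mean of kept probes 100 and with only the groups compared 94. Leaving out 1 array at a time, 437 of 504 results kept it, 60 lost the call and 7 gained it, and 32 uncalled values changed sign. The number of members called moved by over 1.5 times in 7 comparisons. For F9-Sox2 against F9 EC it was 1, and 3 under median scaling, 3 with offset 50, 0 with the authors' values, 2 with the mean of probes, 2 with only the groups compared and 0 to 1 leaving out an array. For the arrays labelled Epi-Sox2f it was 0, and 1 with offset 50, 1 with the mean of probes and 0 to 1 leaving out an array. For P19-Sox2 against P19 EC it was 3, and 1 with the authors' values and 1 to 1 leaving out an array. For the difference between these lines it was 3, and 1 with the authors' values and 1 to 2 leaving out an array. For EpiSox2mL2 against EpiSCm it was 4, and 2 with only the groups compared and 2 to 3 leaving out an array. For EpiSox2mE2 against EpiSCm it was 5, and 2 under median scaling, 3 with only the groups compared and 2 to 5 leaving out an array, and for F9 EC against ESCm it was 4, and 2 to 3 leaving out an array. The causes were not tested. With the replicate number as a block, 1 member (Id1) was called in the arrays labelled Epi-Sox2f, against 0 without it, and no other of 105 member calls changed. Same-numbered arrays had deviations that correlated at -0.17 to 0.07, so the block is no pairing. Where 1 array of a group is left out, the other is assumed to vary like the other groups. The slide as a block was not run, since the headers used here name no slide. Signal over background limits Bmp4, Bmp7, Id3, Msx1 and Smad6 most, whose means lie near the detection limit in several groups. Means of Id2 in EpiSCm (5.73) and EpiSox2mE2 (5.58) and of Id1 in EpiSox2mL2 (5.74) also lie within the range of array detection limits. Folds against these groups share that limit.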
